A study of Mus musculus with 18 samples.

Results

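The genes described here are 9 sensors and transcription factors that stand upstream in the type I interferon response, chosen by symbol from the 18204 genes of the expression table: Stat2, Irf1, Irf2, Irf3, Irf5, Irf9, Dhx58, Ifih1 and Eif2ak2. All 9 were listed once and all passed the limit on low expression. They were measured by RNA sequencing in J774.1 cells, a mouse cell line with macrophage properties, in 6 groups of 3 samples. Wildtype cells and cells without C-terminal binding proteins, labelled Ctbp1-/- Ctbp2-/- and called Ctbp1/2 dKO or dKO below, were each kept for 4 h with vehicle (PBS/DMSO), 1.5 mM MTOB or 0.25 mM 4-Cl-HIPP. CTBPs are transcriptional co-repressors with a dehydrogenase domain, and both compounds compete with its substrate. MTOB is 4-methylthio-2-oxobutanoate, a keto acid and substrate analogue, and 4-Cl-HIPP is a chlorinated phenylpropanoic acid with an oxime in place of the keto group. Each genotype has 1 vehicle group, which serves both inhibitors. MTOB was dissolved in PBS and 4-Cl-HIPP in DMSO, and the paper names the control DMSO in its description and PBS/DMSO in its methods. Whether each inhibitor comparison was matched for solvent is not clear from this. After CRISPR/Cas9 editing, cells were grown out from single cells into clones that were checked as wildtype or knockout. How many clones stand behind the samples of a genotype is not given in the sources used here. The loss of CTBPs and other differences between the wildtype and the dKO line therefore cannot be told apart. The methods speak of biological triplicates. Neither they nor the labels say whether the 3 samples of a group came from separate cultures, and p-values then measure only the spread between these samples.

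Type I interferons bind the IFNAR receptor, and its kinases activate STAT proteins, among them STAT2, which joins IRF9 in the complex ISGF3. ISGF3 binds interferon-stimulated response elements (ISRE) in the promoters of interferon-stimulated genes, many of which code for the sensors and factors that make up the pathway itself. MDA5 (encoded by Ifih1) and RIG-I are receptors for viral RNA in the cytosol, LGP2 (Dhx58) is a related helicase that modulates them, and PKR (Eif2ak2) is a kinase that halts translation when it binds double-stranded RNA. Macrophages keep many of these proteins at a basal level without infection.

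Values are TPM, a measure of transcript abundance that is corrected for transcript length and scaled to a fixed sum in each sample, so that levels of different genes can be set side by side and the sequencing depth of a sample is unknown. Differences are given on the scale log2(TPM + 1) with the standard error (SE) from limma, and an adjusted p is a Benjamini-Hochberg-adjusted P-value over the 16383 genes tested in that comparison. A gene passed the test at an adjusted p below 0.05, and the limit of 1.5-fold (0.585 on the log2 scale) is named where it was also passed. Adding 1 TPM makes differences of low genes, Ifih1 above all, smaller than the ratio of their TPM. Ratios of mean TPM are given as folds.

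Across samples of a group, log2(TPM + 1) of well expressed genes correlated with a Pearson r of 0.987 to 0.991. The targeted gene Ctbp1 had 7.71- to 8.92-fold lower mean TPM in dKO than in wildtype cells under the 3 treatments, and Ctbp2 1.22- to 1.26-fold lower mean TPM. Of 10 macrophage markers looked for, 9 could be analysed, and their summed TPM was 2321 to 3425 in every sample. Single markers differed between the genotypes under vehicle. Mean TPM in wildtype and dKO cells was 29.1 and 8.93 for Adgre1, 458 and 143 for Cd14 and 15.8 and 47.9 for Itgam. Cd86 had at most 0.613 TPM in any sample. Of 12 markers of other cell types looked for, 4 could be analysed, and together they had at most 2.26 TPM. By these sums the label of a macrophage line held in every group, though the sums weigh abundant markers such as Csf1r, Cd68 and Lyz2 most. Among these 4 markers Pecam1, an adhesion molecule of endothelial cells and of some leukocytes, had 0.938, 1.22 and 1.43 TPM in dKO cells and 0, 0.0679 and 0 TPM in wildtype cells under vehicle, and its part in the results was not tested. In bulk RNA, more cells with a transcript and more transcript per cell cannot be told apart.

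Of the 9 genes, 8 matched an entry in the RefSeq promoter table (build GRCm38.p6), with 10 windows of 300 bases that run from 250 bases before to 50 bases after a transcription start. Dhx58 had no entry. Each window matched GRCm39 exactly once. The windows were searched on both strands for the letters of ISRE (GAAA, 2 bases of any kind, GAAA) and of GAS, an element bound by STAT dimers (TTC, 3 bases of any kind, GAA). Windows of 5 genes held at least 1 of these motifs, and they are shown here in full, 5′ to 3′ on the strand of the gene, with the matched letters in capitals. The positions on GRCm39 are chr10:128106117-128106416 on the plus strand for Stat2, chr11:53660591-53660890 on the plus strand for Irf1, chr8:47192530-47192829 on the plus strand for Irf2, chr2:62476550-62476849 on the minus strand for Ifih1 and chr17:79189952-79190251 on the minus strand for Eif2ak2.
Stat2: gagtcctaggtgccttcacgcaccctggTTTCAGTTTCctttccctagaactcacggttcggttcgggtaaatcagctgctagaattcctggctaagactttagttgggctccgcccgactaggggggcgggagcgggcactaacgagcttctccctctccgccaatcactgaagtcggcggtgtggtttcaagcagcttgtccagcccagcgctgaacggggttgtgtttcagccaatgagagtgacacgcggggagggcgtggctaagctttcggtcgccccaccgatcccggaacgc
Irf1: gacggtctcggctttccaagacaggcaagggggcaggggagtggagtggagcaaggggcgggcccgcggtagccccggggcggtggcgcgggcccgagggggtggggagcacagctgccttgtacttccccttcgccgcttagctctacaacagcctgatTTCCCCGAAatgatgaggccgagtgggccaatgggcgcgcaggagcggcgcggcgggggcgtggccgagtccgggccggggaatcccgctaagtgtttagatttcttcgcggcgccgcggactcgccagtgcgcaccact
Irf2: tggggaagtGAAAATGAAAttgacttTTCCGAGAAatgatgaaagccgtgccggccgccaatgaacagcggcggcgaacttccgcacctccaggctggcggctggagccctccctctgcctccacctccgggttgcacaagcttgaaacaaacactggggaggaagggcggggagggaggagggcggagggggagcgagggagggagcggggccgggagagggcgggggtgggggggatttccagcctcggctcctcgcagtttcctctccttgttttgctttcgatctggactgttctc
Ifih1: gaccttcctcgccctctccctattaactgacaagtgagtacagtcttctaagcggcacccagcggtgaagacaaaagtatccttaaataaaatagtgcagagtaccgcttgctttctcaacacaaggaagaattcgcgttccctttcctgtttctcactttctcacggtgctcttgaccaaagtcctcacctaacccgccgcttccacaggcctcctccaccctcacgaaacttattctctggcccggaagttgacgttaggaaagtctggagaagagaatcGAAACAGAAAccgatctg
Eif2ak2: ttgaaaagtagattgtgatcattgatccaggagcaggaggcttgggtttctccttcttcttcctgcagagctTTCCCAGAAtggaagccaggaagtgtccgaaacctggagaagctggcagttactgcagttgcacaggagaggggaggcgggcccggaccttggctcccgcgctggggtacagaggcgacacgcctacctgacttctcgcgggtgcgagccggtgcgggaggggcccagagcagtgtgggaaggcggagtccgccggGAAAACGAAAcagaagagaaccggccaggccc
Counted from 1 at the 5′ end of the window, ISRE letters began at base 29 in Stat2 (as TTTCAGTTTC, the motif on the other strand), at base 10 in Irf2 (GAAAATGAAA), at base 283 in Ifih1 (GAAACAGAAA) and at base 269 in Eif2ak2 (GAAAACGAAA). GAS letters began at base 161 in Irf1 (TTCCCCGAA), at base 27 in Irf2 (TTCCGAGAA) and at base 73 in Eif2ak2 (TTCCCAGAA). No motif overlapped another. Among all 32851 windows of the table, 3.44% held the ISRE letters and 8.3% the GAS letters. Windows of Irf3, Irf5 and Irf9 and a second window of Irf1 held neither, which says only that these letters are not in those windows. Motif letters and response did not go together in every gene: Irf2 held both motifs and passed no test, and Irf9 held none and passed 5.

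The 9 genes spanned a wide range of levels. In wildtype cells under vehicle, Irf5, a factor that acts downstream of Toll-like receptors in macrophages, was the most abundant with 171 ± 6.82 TPM (SD, n = 3), followed by Irf3, the factor that RIG-I-like receptors and STING activate by phosphorylation, with 70.1 ± 7.74 TPM (SD, n = 3). Irf2, a factor that occupies interferon elements in resting cells, had 36.0 ± 5.77 TPM (SD, n = 3) and Eif2ak2 26.3 ± 2.69 TPM (SD, n = 3). Below them stood Irf9 at 19.8 ± 2.32, Stat2 at 10.9 ± 1.34, Irf1 at 10.3 ± 0.808, Dhx58 at 7.85 ± 1.62 and Ifih1 at 2.83 ± 0.241 TPM (SD, n = 3 each). The ranges of neighbours in this order did not overlap between Irf5, Irf3, Irf2 and Eif2ak2, nor between Eif2ak2 and Irf9, whereas Stat2 overlapped Irf1 and Irf1 overlapped Dhx58. Irf5 was first, Irf3 second and Ifih1 last in all 6 groups. Irf1, an activator of interferon genes that is itself induced by interferons, stood 7th in wildtype cells and 8th in dKO cells under vehicle, because Dhx58 moved past it.

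**Figure D1:**
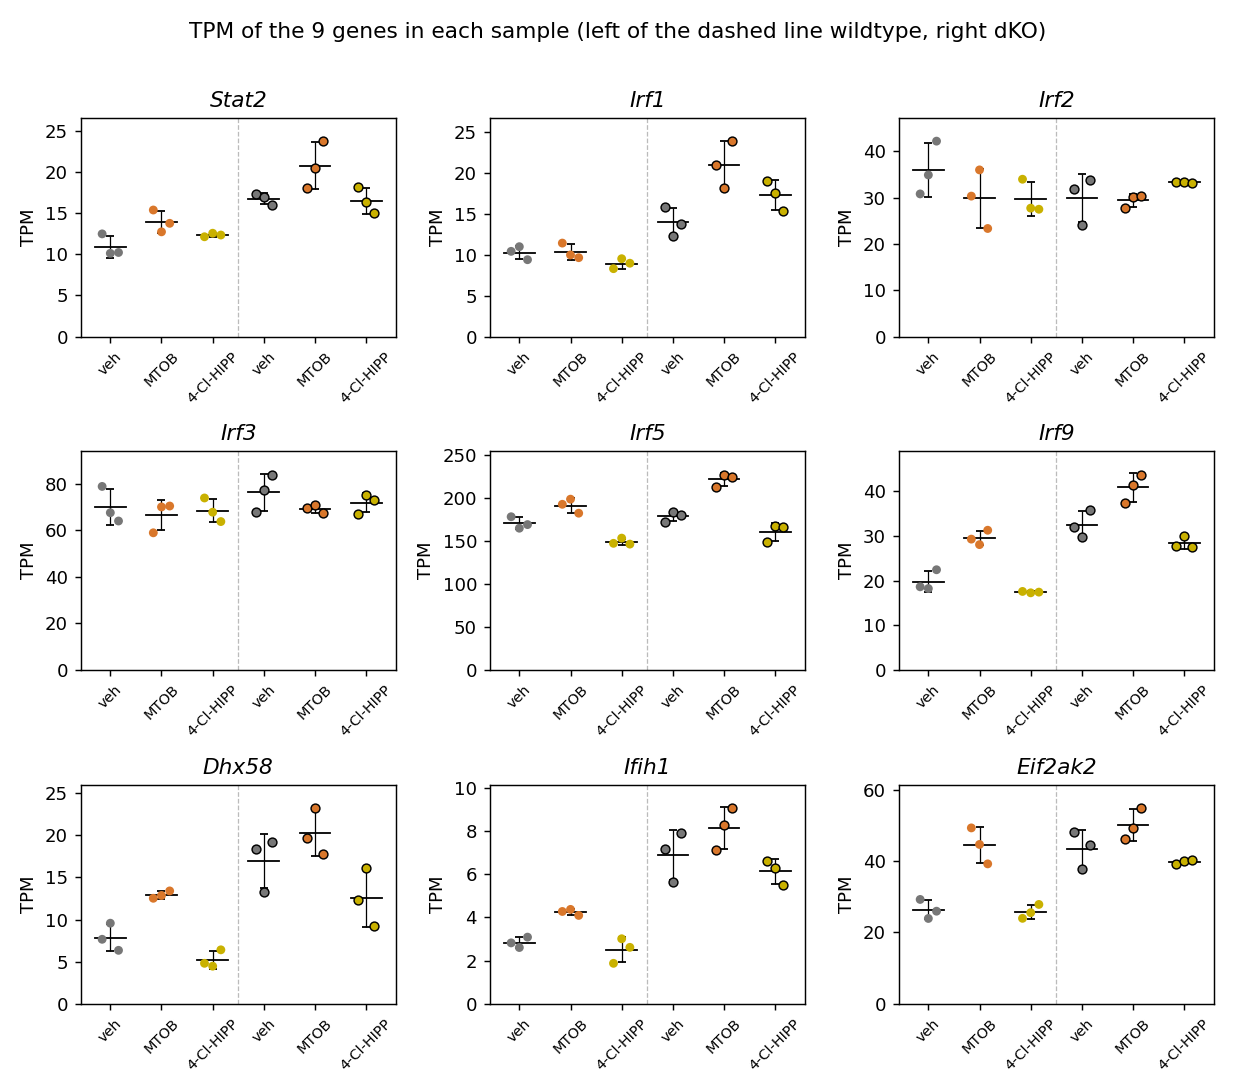
TPM of the 9 genes in each of the 18 samples, with 1 panel per gene and a linear axis from 0. Points are samples (dKO samples outlined in black), horizontal lines are group means and bars are SD of 3 samples, and the colours stand for vehicle (veh, grey), MTOB (orange) and 4-Cl-HIPP (yellow). Ifih1 lay at 1.87 to 4.37 TPM in the 9 wildtype samples and at 5.48 to 9.05 TPM in the 9 dKO samples, whereas wildtype and dKO samples of Irf2 and Irf3 overlapped under each treatment.

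Both RNA sensors and PKR were higher in dKO than in wildtype cells under vehicle, together with the ISGF3 subunits Stat2 and Irf9 and with Irf1, while Irf2, Irf3 and Irf5 were not past the test. The sensors differed most, with a mean TPM of Ifih1 2.43-fold and of Dhx58 2.16-fold that of wildtype cells. Of the 9 genes, 6 were higher at an adjusted p below 0.05 and 0 lower, and 4 of them (Irf9, Dhx58, Ifih1 and Eif2ak2) were also over 1.5-fold. Among all genes tested in this comparison 7.01% were higher and 3.72% lower, and 3.28% were higher and over 1.5-fold. The median difference of the 9 genes was 0.58, against 0.01 for all genes tested.

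Ifih1 (ENSMUSG00000026896, minus strand of chromosome 2 from 62425714 to 62476607 in GRCm39) codes for MDA5, which binds long double-stranded RNA. Its TPM were 2.82, 2.60 and 3.08 in the wildtype samples and 7.15, 5.62 and 7.89 in the dKO samples under vehicle. Every dKO sample lay well above every wildtype sample, and the second dKO sample was the lowest of its group. The difference was 1.03 (SE 0.13, adjusted p = 6.7e-05, limma). Dhx58 (ENSMUSG00000017830, minus strand of chromosome 11 from 100585710 to 100595097) had 7.65, 9.56 and 6.34 TPM in wildtype and 18.3, 13.3 and 19.2 TPM in dKO cells. Again the groups did not overlap and the second dKO sample was lowest. The difference of Dhx58 was 1.02 (SE 0.19, adjusted p = 0.00178, limma).

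Eif2ak2 (ENSMUSG00000024079, minus strand of chromosome 17 from 79159972 to 79190012) had 29.2, 23.9 and 25.9 TPM in wildtype and 48.1, 37.7 and 44.4 TPM in dKO cells under vehicle. The groups did not overlap, with a mean TPM in dKO cells 1.65-fold that of wildtype cells. On the log2 scale it differed by 0.70 (SE 0.10, adjusted p = 0.00019, limma). PKR is an interferon-stimulated gene product that also belongs to the kinases of eIF2.

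The DNA-binding subunit of ISGF3, Irf9 (ENSMUSG00000002325, plus strand of chromosome 14 from 55841028 to 55847812), had 18.6, 18.2 and 22.4 TPM in wildtype and 32.0, 29.7 and 35.7 TPM in dKO cells under vehicle. All dKO samples were above all wildtype samples, with a difference of 0.69 (SE 0.08, adjusted p = 3.51e-05, limma), the smallest adjusted p of the 9 genes in this comparison. Stat2 (ENSMUSG00000040033, plus strand of chromosome 10 from 128106352 to 128128735), the subunit that carries the transactivation domain, had 12.5, 10.1 and 10.2 TPM in wildtype and 17.3, 16.9 and 16.02 TPM in dKO cells. It was higher in every dKO sample as well, by 0.58 (SE 0.10, adjusted p = 0.00116, limma), just below the 1.5-fold limit on this scale. Irf9 shares 4.86% of its exonic bases with Rnf31 on the same strand, and reads there can be assigned to either gene.

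Irf1 (ENSMUSG00000018899, plus strand of chromosome 11 from 53660812 to 53669200) had 10.4, 11.0 and 9.40 TPM in wildtype and 15.9, 12.3 and 13.8 TPM in dKO cells under vehicle. The groups did not overlap, but the lowest dKO sample was only slightly above the highest wildtype sample. The difference was 0.41 (SE 0.12, adjusted p = 0.0349, limma), and this call depended on single samples: the adjusted p was 0.0779 and 0.137 without wildtype vehicle replicate 1 or 3 and 0.159 and 0.0808 without dKO vehicle replicate 1 or 3. The library kit was unstranded and 31.4% of the exonic bases of Irf1 lie opposite Gm17334, which was not analysed here, so that reads of the 2 strands cannot be told apart there.

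The remaining 3 factors gave no call in this comparison. Irf2 (ENSMUSG00000031627, plus strand of chromosome 8 from 47192222 to 47300501) had 30.8, 34.9 and 42.2 TPM in wildtype and 31.8, 24.0 and 33.8 TPM in dKO cells, with a difference of -0.26 (95% interval -0.59 to 0.06). Irf3 (ENSMUSG00000003184, plus strand of chromosome 7 from 44647033 to 44652272) had 78.8, 67.5 and 63.9 TPM in wildtype and 67.7, 77.1 and 83.8 TPM in dKO cells, with a difference of 0.12 (95% interval -0.08 to 0.32). For both genes the groups overlapped and the interval leaves room for a difference in either direction. Irf5 (ENSMUSG00000029771, plus strand of chromosome 6 from 29526276 to 29541870) had 178, 165 and 169 TPM in wildtype and 172, 184 and 181 TPM in dKO cells. It differed by 0.07 with a narrow 95% interval of -0.04 to 0.17. An effect of Irf5 as large as that of Irf9 lies outside this interval.

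Under MTOB, Irf1 and Ifih1 set the genotypes apart most. There, 5 of the 9 genes were higher in dKO cells and 0 lower, 2 of them (Irf1 and Ifih1) over 1.5-fold, against 6.98% of all genes tested that were higher, 4.18% that were lower and 3.33% that were higher and over 1.5-fold. The median difference of the 9 genes was 0.45. Irf1 had the largest difference of the 9 genes under MTOB, with 11.4, 9.99 and 9.65 TPM in wildtype and 21.03, 18.2 and 23.9 TPM in dKO cells. The groups did not overlap, mean TPM in dKO cells was 2.03-fold that of wildtype cells, and the difference was 0.95 (SE 0.12, adjusted p = 3.71e-05, limma). Irf5, the most abundant of the 9 genes, passed the test in this comparison with a difference of 0.21 (SE 0.05, adjusted p = 0.00988, limma), from 191 ± 8.25 to 222 ± 7.41 TPM (SD, n = 3), and without wildtype MTOB replicate 3 its adjusted p was 0.0549. Ifih1 (0.80, adjusted p = 0.000747), Stat2 (0.54, adjusted p = 0.00212) and Irf9 (0.45, adjusted p = 0.00181, limma) were higher too.

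Eif2ak2 and Dhx58, both clearly separated under vehicle, were not past the test under MTOB. Eif2ak2 had 49.3, 44.6 and 39.2 TPM in wildtype and 46.0, 49.3 and 54.8 TPM in dKO cells, so that the groups overlapped, with a difference of 0.17 (95% interval -0.04 to 0.39, adjusted p = 0.359, limma). Dhx58 had 12.5, 12.9 and 13.4 TPM in wildtype and 19.7, 23.2 and 17.8 TPM in dKO cells, which did not overlap, with a difference of 0.60 (SE 0.19, adjusted p = 0.0556, limma).

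Under 4-Cl-HIPP the genes past the test were those of the vehicle comparison, 6 of 9 higher and 0 lower, of which 5 were over 1.5-fold, against 6.6% of all genes tested that were higher, 3.63% that were lower and 3.14% that were higher and over 1.5-fold. The median difference was 0.61. Dhx58 differed by 1.11 (SE 0.19, adjusted p = 0.000913), Ifih1 by 1.04 (SE 0.13, adjusted p = 6.29e-05) and Irf9 by 0.67 (SE 0.08, adjusted p = 4.69e-05, limma). Irf1 differed by 0.88 (SE 0.12, adjusted p = 8e-05, limma), with 8.30, 9.52 and 8.97 TPM in wildtype and 19.0, 17.5 and 15.4 TPM in dKO cells, and the groups were far apart. Eif2ak2 differed by 0.61 (SE 0.10, adjusted p = 0.000661) and Stat2 by 0.39 (SE 0.10, adjusted p = 0.0217, limma). The call of Stat2 was lost without any 1 of 5 of the 6 samples compared, with an adjusted p of 0.0512 to 0.106, and it held only without dKO 4-Cl-HIPP replicate 3.

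**Figure D2:**
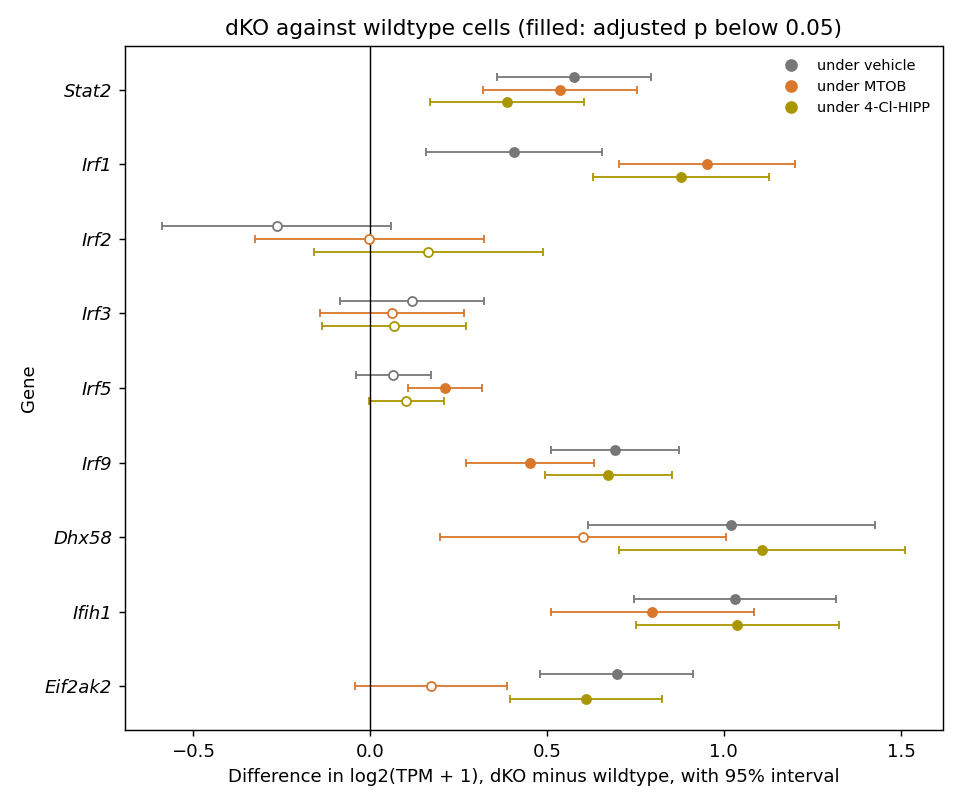
Difference between dKO and wildtype cells in log2(TPM + 1) for the 9 genes under vehicle, MTOB and 4-Cl-HIPP, with 95% intervals from limma on 3 samples per group. Filled points passed an adjusted p below 0.05; Stat2, Irf1, Irf9 and Ifih1 are filled under all 3 treatments, Irf5 under MTOB only, and Irf2 and Irf3 under none.

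The second vehicle sample of dKO cells had the lowest TPM of its group in 6 of the 9 genes (Irf1, Irf2, Irf9, Dhx58, Ifih1 and Eif2ak2). This was not particular to that sample. In dKO cells, MTOB replicate 1 and 4-Cl-HIPP replicate 3 were also lowest in 6 of 9 genes. In wildtype cells, vehicle replicate 2 and MTOB replicate 3 were lowest in 5 of 9. Without dKO vehicle replicate 2, 6 of the 9 genes were still past the test between the genotypes under vehicle. Of 12 interferon ligands looked for, Ifnb1, which codes for interferon beta, could be analysed here. Ifnb1 was listed at 0 in all 9 wildtype samples, at 1.04, 0 and 0.781 TPM in dKO cells under vehicle, at 0.911, 1.30 and 0 TPM in dKO cells under MTOB and at 0 in all dKO samples under 4-Cl-HIPP. Under vehicle the dKO sample at 0 for Ifnb1 was replicate 2, which was lowest for the 6 genes. Under MTOB the dKO sample at 0 was replicate 3. That sample was the highest of its group for Stat2, Irf1, Irf2, Irf9, Ifih1 and Eif2ak2 and the lowest for Irf3 and Dhx58. A link between Ifnb1 and the 9 genes was not tested. Ifnb1 was not past the test between the genotypes under vehicle or MTOB.

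MTOB raised part of the 9 genes in wildtype cells. Against vehicle, 3 of 9 rose and 0 fell, 2 of them (Dhx58 and Eif2ak2) over 1.5-fold, while 3.8% of all genes tested rose, 3.46% fell and 1.56% rose by over 1.5-fold. The median change of the 9 genes was 0.33. Eif2ak2 went from 29.2, 23.9 and 25.9 TPM to 49.3, 44.6 and 39.2 TPM, a change of 0.73 (SE 0.10, adjusted p = 0.000242, limma). All MTOB samples were above all vehicle samples, and the mean of 44.4 ± 5.05 TPM (SD, n = 3) was close to the 43.4 ± 5.27 TPM (SD, n = 3) of dKO cells under vehicle. Irf9 went from 18.6, 18.2 and 22.4 TPM to 29.3, 28.05 and 31.3 TPM, a change of 0.56 (SE 0.08, adjusted p = 0.000517, limma), again without overlap. Dhx58 went from 7.65, 9.56 and 6.34 TPM to 12.5, 12.9 and 13.4 TPM, a change of 0.67 (SE 0.19, adjusted p = 0.0449, limma). This call of Dhx58 was close to the limit and had an adjusted p of 0.109 and 0.179 without wildtype vehicle replicate 1 or 3, and of 0.0974, 0.108 and 0.12 without wildtype MTOB replicate 1, 2 or 3.

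For 3 other genes, Ifih1, Stat2 and Irf5, the groups did not overlap but the test was not passed. Ifih1 had 2.82, 2.60 and 3.08 TPM under vehicle and 4.27, 4.37 and 4.09 TPM under MTOB in wildtype cells, with no overlap and a difference of 0.45 (adjusted p = 0.0548, limma). Stat2 had a difference of 0.33 (adjusted p = 0.0691) and Irf5 of 0.16 (adjusted p = 0.0629, limma), also without overlap of the groups. Stat2 passed without wildtype vehicle replicate 1 (adjusted p = 0.0313) and Irf5 without wildtype MTOB replicate 3 (adjusted p = 0.0497). Irf1 differed by 0.01 (95% interval -0.24 to 0.26), which leaves out a change of the size seen for Irf9. Irf2 and Irf3 differed by -0.27 and -0.08 with overlapping groups.

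In dKO cells MTOB raised Irf1, Irf5 and Irf9. Here 3 of 9 rose and 0 fell, 0 of them over 1.5-fold, against 3.04% of all genes tested that rose, 3.54% that fell and 1.15% that rose by over 1.5-fold. The median change was 0.25. Irf1 rose from 15.9, 12.3 and 13.8 TPM to 21.03, 18.2 and 23.9 TPM, by 0.56 (SE 0.12, adjusted p = 0.00821, limma). Irf5 rose from 179 ± 5.86 to 222 ± 7.41 TPM (SD, n = 3), by 0.31 (SE 0.05, adjusted p = 0.00112, limma). For both genes every MTOB sample was above every vehicle sample. Irf9 rose from 32.5 ± 3.03 to 40.8 ± 3.18 TPM (SD, n = 3), by 0.32 (SE 0.08, adjusted p = 0.0319, limma), a call that was lost without dKO vehicle replicate 1 or 2 (adjusted p = 0.0887 and 0.143) or dKO MTOB replicate 2 or 3 (adjusted p = 0.0818 and 0.115). The sensors and PKR gave no call in dKO cells, with differences of 0.25 for Dhx58, 0.22 for Ifih1 and 0.20 for Eif2ak2 and overlapping groups. For Eif2ak2 the 95% interval was -0.01 to 0.42 in dKO cells and 0.51 to 0.94 in wildtype cells. The direct test of the difference, given below, did not pass (adjusted p = 0.345, limma).

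The difference of the MTOB effect between the genotypes was tested directly. It passed for 0 of the 9 genes and for 0.0916% of all genes tested (limma, adjusted p below 0.05). At an unadjusted p below 0.05 there were 1128 of the 16383 genes tested, and 2 of the 9. One was Eif2ak2, whose change was smaller in dKO than in wildtype cells by 0.52 on the log2 scale (dKO minus wildtype -0.52, SE 0.14, adjusted p = 0.345, limma). The other was Irf1, whose change was larger in dKO cells by 0.55 (SE 0.16, adjusted p = 0.437, limma). A gene that passed the test in 1 genotype alone is therefore not shown to respond differently in the other.

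4-Cl-HIPP moved none of the 9 genes past the test in either genotype (0 of 9 in limma, against 0.366% of all genes tested in wildtype and 0.501% in dKO cells). At an unadjusted p below 0.05 there were 2 of the 9 in wildtype and 4 of the 9 in dKO cells. Of all 16383 genes tested, 1341 in wildtype and 1388 in dKO cells had such an unadjusted p. Irf5 had 178, 165 and 169 TPM under vehicle and 147, 153 and 147 TPM under 4-Cl-HIPP in wildtype cells, with no overlap and a difference of -0.19 (95% interval -0.30 to -0.09, adjusted p = 0.151, limma). In dKO cells it had 172, 184 and 181 TPM under vehicle and 149, 167 and 166 TPM under 4-Cl-HIPP, which differed by -0.16 (95% interval -0.26 to -0.05, adjusted p = 0.283, limma). The groups of Irf5 did not overlap in either genotype. Dhx58 had differences of -0.51 in wildtype (adjusted p = 0.465) and -0.42 in dKO cells (adjusted p = 0.56, limma), with overlapping groups. Irf1 had a difference of -0.18 in wildtype (95% interval -0.43 to 0.07) and of 0.29 in dKO cells (95% interval 0.04 to 0.54), and Irf9 had differences of -0.17 and -0.18. The difference between the genotypes in the 4-Cl-HIPP effect passed for 0 of the 9 genes (limma) and for 0% of all genes tested. Of the 9, Irf1 alone had an unadjusted p below 0.05 there, against 734 of the 16383 genes tested.

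Doses of the inhibitors differed, at 1.5 mM and 0.25 mM, so their values are given beside each other without a comparison. In wildtype cells Eif2ak2 had a mean of 44.4 TPM under MTOB and 25.7 TPM under 4-Cl-HIPP, Irf9 29.5 and 17.4 TPM, and Dhx58 12.9 and 5.22 TPM. The vehicle samples of a genotype enter both inhibitor comparisons and the genotype comparison, so high or low vehicle samples move all of them.

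**Figure D3:**
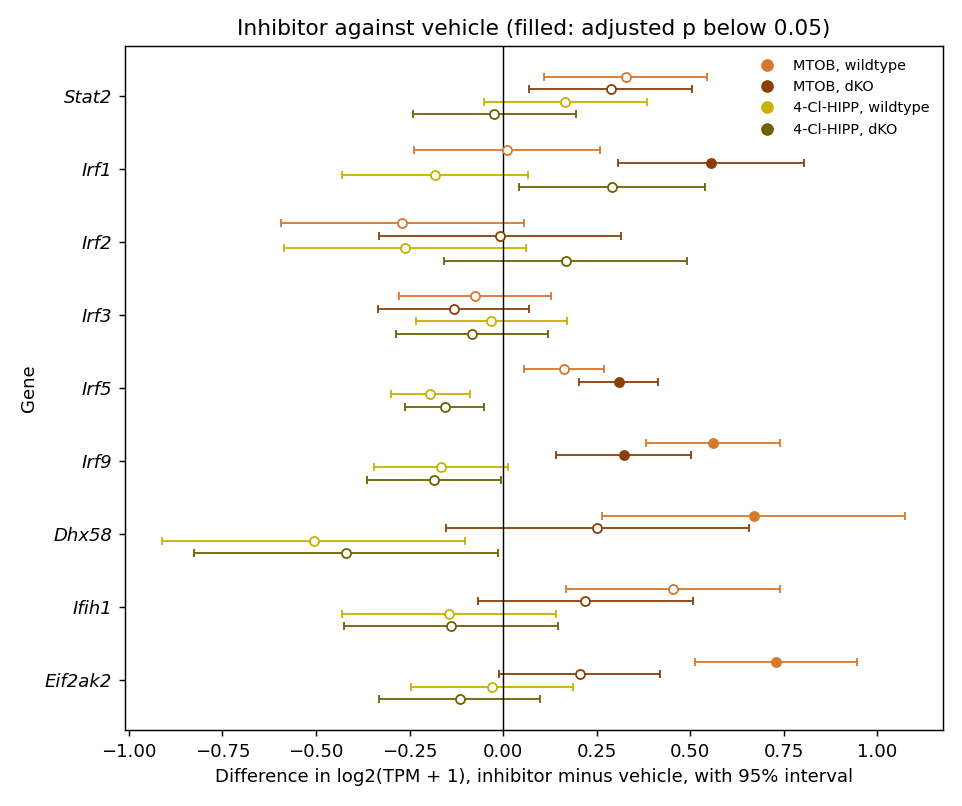
Difference between inhibitor and vehicle in log2(TPM + 1) for the 9 genes in wildtype and dKO cells, with 95% intervals from limma on 3 samples per group. Filled points passed an adjusted p below 0.05: Irf9, Dhx58 and Eif2ak2 for MTOB in wildtype cells, Irf1, Irf5 and Irf9 for MTOB in dKO cells, and none for 4-Cl-HIPP.

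Group order by mean level was set beside the genotype for each gene. For Ifih1 and Irf1 all wildtype groups stood below all dKO groups, and the highest wildtype sample (4.37 TPM of Ifih1, 11.4 TPM of Irf1) was below the lowest dKO sample (5.48 and 12.3 TPM). The means of Stat2 had the same order of genotypes, but wildtype cells under MTOB (12.7 to 15.4 TPM) overlapped dKO cells under 4-Cl-HIPP (15.0 to 18.1 TPM). Irf9, Dhx58 and Eif2ak2 differed from these in that wildtype cells under MTOB lay among the dKO groups: Irf9 at 29.5 ± 1.62 TPM overlapped dKO cells under 4-Cl-HIPP at 28.4 ± 1.28 TPM and under vehicle at 32.5 ± 3.03 TPM (SD, n = 3 each). dKO cells under MTOB had the highest mean for all genes except Irf2 and Irf3.

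Irf1 and Irf2 bind the same DNA elements with opposite reported roles, so the ratio of their TPM was computed in each sample. It was 0.339, 0.315 and 0.223 in wildtype and 0.499, 0.513 and 0.407 in dKO cells under vehicle. Under MTOB it was 0.377, 0.278 and 0.414 in wildtype and 0.755, 0.604 and 0.790 in dKO cells. Within each treatment every dKO sample had the higher ratio. Under 4-Cl-HIPP the ratio was 0.244, 0.343 and 0.326 in wildtype and 0.569, 0.526 and 0.464 in dKO cells. Across treatments the ranges met, since the lowest dKO sample (0.407, vehicle) was just under the highest wildtype sample (0.414, MTOB). The mean ratio was 0.292 ± 0.0612 in wildtype cells under vehicle and 0.716 ± 0.0989 in dKO cells under MTOB (SD, n = 3 each). These ratios are given without a test. In wildtype cells the mean of Irf1 was 10.3 TPM under vehicle and 10.4 TPM under MTOB, and that of Irf2 36.0 and 29.9 TPM, so the level of both genes enters the ratio.

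**Figure D4:**
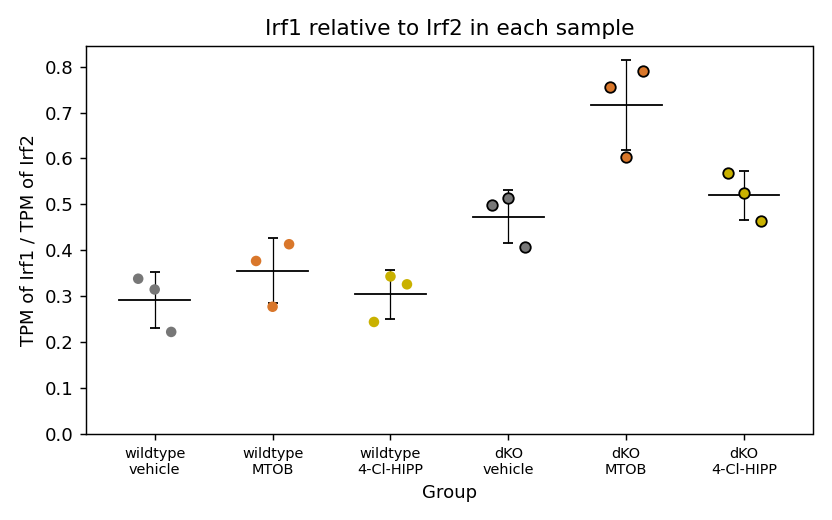
TPM of Irf1 divided by TPM of Irf2 in each sample, by group, on a linear axis from 0; points are samples (dKO outlined), lines are means and bars are SD of 3 samples. Under each treatment the 3 dKO samples lie above the 3 wildtype samples.

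Other genes of the pathway were taken from lists by role. In the IFNAR receptor and JAK-STAT list, Tyk2, a kinase at the IFNAR receptor, was higher in dKO than in wildtype cells under vehicle, at 23.5 against 18.3 TPM (0.34, adjusted p = 0.0218, limma). Of 8 JAK-STAT inhibitors, 3 were higher and 1 lower, against 7.01% of all genes tested that were higher and 3.72% that were lower. Usp18, which is induced by interferon and dampens signalling at the receptor, went from 6.89 to 34.2 TPM (2.15, adjusted p = 4.3e-08), whereas Ptpn1, a phosphatase that acts on JAK kinases, went from 36.4 to 23.5 TPM (-0.60, adjusted p = 0.0252, limma). Socs3 and Ptpn6 differed by 0.29 and 0.12.

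Of 14 tested genes of RIG-I-like receptor and STING signalling, 3 were higher in dKO cells under vehicle and 0 lower. The shares of all genes tested were 7.01% higher and 3.72% lower, also for the lists that follow. Ddx58, which codes for RIG-I, went from 10.1 to 38.3 TPM (1.82, adjusted p = 5.43e-08), Sting1, the adaptor for cyclic dinucleotides, from 48.7 to 87.9 TPM (0.84, adjusted p = 0.000241), and Adar, which edits double-stranded RNA, from 56.5 to 78.9 TPM (0.47, adjusted p = 9.97e-06, limma). All 3 RNA helicases of the family, Ddx58, Ifih1 and Dhx58, were therefore higher. Among 7 other IRFs and IRF2 cofactors, Irf7 was higher (9.66 to 48.7 TPM, 2.20, adjusted p = 1.45e-07), Irf2bpl was higher by 0.29, and Irf8, a factor of the macrophage lineage, was lower (30.7 to 23.0 TPM, -0.41, adjusted p = 0.000838, limma). Of 9 other eIF2 kinases and regulators of PKR, Eif2ak4, the kinase GCN2 that senses amino acid shortage, passed (0.33, adjusted p = 0.0324, limma). This 1 call of 9 is near the share of all genes tested and does not set the list apart. The difference of PKR (0.70) was larger than that of any gene in this list. Of 10 interferon effectors kept for comparison, 6 were higher and 0 lower. The macrophage markers moved both ways: 3 of 9 were higher and 2 lower, among them Itgam (1.57) and Cd14 (-1.67), and their part in the values above was not tested.

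The response of the same lists to MTOB in wildtype cells was uneven. Of 14 genes of RIG-I-like receptor and STING signalling, 6 rose and 0 fell, among them Ikbke, a kinase that activates IRF3 and IRF7 (6.16 to 19.1 TPM, 1.50, adjusted p = 2.55e-05), Ddx58 (10.1 to 20.7 TPM, 0.97, adjusted p = 0.000103), Adar (0.50) and Zc3hav1 (0.34). Irf7 rose from 9.66 to 22.7 TPM (1.13, adjusted p = 0.00032) and Irf8 from 30.7 to 58.3 TPM (0.90, adjusted p = 6.09e-07, limma). Of the 9 genes of the IFNAR receptor list, 0 rose and 1 fell, Ifnar2 (88.3 to 68.6 TPM, -0.36, adjusted p = 0.0186, limma). The JAK-STAT inhibitors moved both ways, with Usp18 higher by 1.58 and Socs3 lower (-0.30), and 0 of 9 eIF2 kinases and PKR regulators passed in limma, with 0 also at an unadjusted p below 0.05. Of the 10 effectors, 2 rose. MTOB in wildtype cells raised Eif2ak2 past the test and none of the 9 eIF2 kinases and PKR regulators. Among all genes tested in this comparison 3.8% rose and 3.46% fell, and 3008 of 16383 had an unadjusted p below 0.05. With so few genes past the test, 0 of 9 does not set Eif2ak2 apart from this list.

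In dKO cells MTOB raised 3 of the 14 genes of RIG-I-like receptor and STING signalling (Ikbke by 0.65, Trim25 by 0.25 and Zc3hav1 by 0.22) and Irf8 (23.0 to 31.3 TPM, 0.43, adjusted p = 0.00111, limma). The IFNAR receptor list gave 0 of 9 there (limma), with 2 at an unadjusted p below 0.05. Among all genes tested in this comparison 3.04% rose and 3.54% fell, and 3118 of 16383 had an unadjusted p below 0.05. In the test of the difference in MTOB effect between genotypes, Adar passed with a smaller change in dKO cells (-0.41, adjusted p = 0.0452), as did Ptpn6 (-0.32, adjusted p = 0.0098, limma). 4-Cl-HIPP raised Socs3 in both genotypes, by 0.53 in wildtype (adjusted p = 0.00763) and 0.54 in dKO cells (adjusted p = 0.00652, limma), and Irf2bpl in dKO cells (0.23). The IFNAR receptor, RIG-I-like receptor and eIF2 kinase lists gave 0 calls for 4-Cl-HIPP. Of all genes tested 0.366% passed in wildtype and 0.501% in dKO cells, so 0 calls do not set these lists apart.

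**Figure D5:**
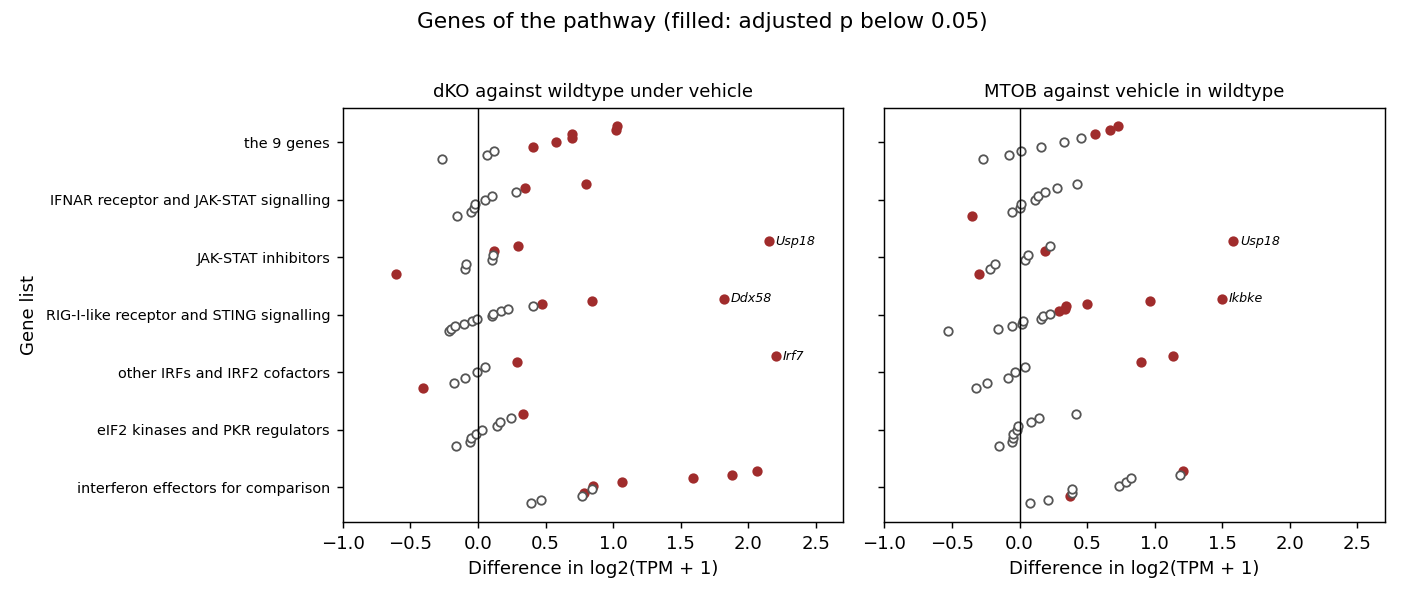
Difference in log2(TPM + 1) of each gene by list, for dKO against wildtype cells under vehicle (left) and MTOB against vehicle in wildtype cells (right), with 1 point per gene and filled points at an adjusted p below 0.05. Usp18, Ddx58 and Irf7 lie at 1.82 to 2.20 in the left panel, beyond all 9 genes described here, and 6 of 9 and 3 of 9 points of the top row are filled in the left and the right panel.

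Genes that ran most alike with each of the 9 were found among 9278 other genes whose mean normalized count was 50 or more, by the root mean square (RMS) difference of their log2(TPM + 1) after each gene's own mean was taken off, over the 18 samples. This is a description, since genotype and treatment are shared by all genes. Dhx58 was closest to Irgm1 (RMS 0.226) and Parp14 (RMS 0.247), which are interferon-inducible genes, and Ifih1 to Ifitm3 (RMS 0.157), an interferon-induced membrane protein, and Pstpip2 (RMS 0.167). Eif2ak2 was closest to Pik3ap1 (RMS 0.127) and Cd44 (RMS 0.130), and Irf9 to Crybg1 (RMS 0.136) and Cd44 (RMS 0.137). Cd44, an adhesion receptor, was thus near both of the genes that MTOB raised most firmly in wildtype cells. Stat2 had Anxa7 (RMS 0.112) among its nearest genes, Irf1 was closest to Jdp2 (RMS 0.176) and Clec12a (RMS 0.178), and Irf5 to Actb (RMS 0.0805) and Wdr1 (RMS 0.0812). Irf2 and Irf3 passed no test and have no such list.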

How the data were processed

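RNA-seq of 18 J774.1 samples was grouped by the genotype and treatment of the labels, which name polyA RNA, whereas the methods name rRNA depletion and an unstranded kit. The authors quantified transcripts with Salmon 1.9.0 (GC correction) on Gencode M28 (build GRCm39) and used DESeq2 1.44.0. They deposited 1 table of 18204 genes, in which TPM, scaled within each sample, were computed by the authors from the Salmon estimates. The table also holds a signal for each gene that the authors took from DESeq2, its mean normalized count. The 8 columns with the authors' log2 fold changes and adjusted p-values were not used. Because the values are TPM, the depth of each sample is unknown. Counting error was not estimated here from the mean normalized counts.

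Here, limma 3.58.1 (R 4.3.3) was fitted to log2(TPM + 1) of the 16383 genes whose mean normalized count exceeded its 10th percentile (0.222), with 6 group means over 18 samples and empirical Bayes moderation, in which the prior variance followed the log2 of that count. Contrasts were the genotypes under each treatment, each inhibitor within each genotype, and the difference of inhibitor effects, with Benjamini-Hochberg adjustment over all genes of a contrast. The procedure was tested on simulated data. Alternatives were a pseudocount of 0.1, no filter, no trend, TPM rescaled by the median of ratios, the compared groups alone, a replicate block and each replicate left out. The 9 genes, the lists and the rule for named genes were chosen with earlier results of these data known. Named genes are the 9, Ctbp1 and Ctbp2, up to 4 passing genes of smallest p per list and comparison, and the 2 nearest genes for each of the 9; Ifnb1 was named after its values were seen. List members were written from general knowledge. Some genes that this rule names are not reported here. Samples with the same replicate number were checked for shared deviations. Gene positions and exon overlaps come from Gencode vM39 on GRCm39 and promoter windows from RefSeq. Plots were made in Python 3.11.15 (matplotlib 3.10.9).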

Additional observations from a re-analysis of the deposited data

Results flagged for a closer look

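For 2 of the 9 genes, Irf1 and Irf2, all 4-Cl-HIPP samples lay on opposite sides of the vehicle mean in the genotypes, although the test of the difference did not pass. Every wildtype sample under 4-Cl-HIPP lay below the wildtype vehicle mean and every dKO sample under 4-Cl-HIPP above the dKO vehicle mean. The single vehicle and 4-Cl-HIPP samples overlapped in both genotypes for both genes, and dKO vehicle replicate 3 of Irf2 (33.8 TPM) was above all dKO samples under 4-Cl-HIPP (33.1 to 33.4 TPM). The effect in dKO minus that in wildtype cells was 0.474 on the log2 scale for Irf1 (unadjusted p = 0.0117, adjusted p = 1, limma). For Irf2 it was 0.428 (unadjusted p = 0.0647, adjusted p = 1, limma). Of all genes tested 0% passed this test and 734 genes had an unadjusted p below 0.05.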

How the results depend on the processing

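No difference of the 9 genes that passed changed direction under any alternative run. Of 23 such differences, 16 passed under all alternatives, and of the other 58, 4 passed under at least 1. In wildtype cells the count of genes raised by MTOB was 6 in place of 3 after TPM were rescaled by the median of ratios, with Stat2, Irf5 and Ifih1 added (size factors 0.968 to 1.02). In dKO cells it was 1 in place of 3, Irf5, when the compared groups were fitted alone, where fewer samples set the spread. That fit also ended the calls of Irf1 under vehicle (adjusted p = 0.102), of Stat2 (0.0704) and Irf5 (0.0633) under MTOB between the genotypes, and gave one for Dhx58 under MTOB (0.0389). Leaving out 1 replicate gave 5 to 6, 4 to 5 and 5 to 6 genes between the genotypes under vehicle, MTOB and 4-Cl-HIPP, 2 to 3 for MTOB in wildtype and 2 to 3 in dKO cells, and 0 to 0 for 4-Cl-HIPP and for both differences of effects. The call of Dhx58 for MTOB in wildtype cells was also lost without the filter (adjusted p = 0.0513) and without the trend (0.0574), and Ifih1 passed there with a pseudocount of 0.1 (0.0497). The cause of these shifts was not tested. Replicate numbers gave little sign that samples were paired. Deviations of same-numbered samples correlated with an r of -0.0805 to 0.140, over 0.1 in 1 of 21 pairs, and 5 of 21 samples correlated best with their own number. Between the genotypes under vehicle the r was 0.036 to 0.140. With 3 samples per group this check cannot exclude a batch shared by replicate number. With a replicate block, 6, 5 and 6 genes were past the test between the genotypes and Dhx58 was not for MTOB in wildtype cells (0.67, adjusted p = 0.0668). How far counting error limits Ifih1, the lowest of the 9 genes, was not estimated here from its mean normalized count.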
